A study of Mus musculus with 6 samples.

Results

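A set of 9 genes that mark the tendon and bone lineages of the skull were followed through 6 RNA libraries of cells sorted from mouse dura mater. The members are Tnmd and Scx for tendon, and Runx2, Sp7, Bglap, Bglap2, Ibsp, Alpl and Dmp1 for bone. They were picked by gene name, 9 of 55401 gene identifiers in the tables, and all 9 were among the 17459 genes with enough counts to be tested. The libraries came from wild-type (WT) young male C57BL/6J mice that had received an adeno-associated virus of serotype AAV9 by injection into the cisterna magna, the fluid space at the back of the skull. In the AAV-VEGF-C group the vector encoded full-length mouse VEGF-C, the growth factor of lymphatic vessels, and in the AAV-CTRL group it encoded soluble domains of its receptor VEGFR-3 that leave VEGF-C unbound. Both groups thus carried a vector and a foreign transgene, and no untreated animals are among the 6 libraries. Dural cells positive for LYVE-1, podoplanin and CD31 and negative for CD45, a gate for lymphatic endothelial cells (LECs), were sorted from 10 to 12 pooled animals per library. The experiment was done 3 times, giving 3 libraries in each of 2 groups. Replicate numbers 1, 2 and 3 name the experiment and tie 1 library of each group together.

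The dura mater lies against the inner face of the skull, and its outer layer borders on bone and on the fibrous tissue of the sutures. Bone-forming osteoblasts arise under the transcription factor Runx2 and then Sp7 (osterix), make the alkaline phosphatase Alpl early, and later secrete the matrix proteins bone sialoprotein (Ibsp) and osteocalcin (Bglap, Bglap2). Osteoblasts that become buried in the matrix turn into osteocytes, which express Dmp1, a regulator of mineral and phosphate handling. Tendon and ligament cells depend on the transcription factor Scx, which switches on Tnmd, a membrane protein of mature tendon cells. None of these genes is a marker of the lymphatic endothelium for which the cells were sorted.

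Both osteocalcin genes are shown by sequence, because they are so alike that reads cannot always be assigned to 1 of them. Bglap lies at chr3:88383501-88384464 and Bglap2 at chr3:88377736-88378699, both on the minus strand of GRCm38 (mm10). The coding sequences of 1 transcript of each gene, from GENCODE M21, are each 288 bases long and differ at 4 bases, printed in capitals:
Bglap: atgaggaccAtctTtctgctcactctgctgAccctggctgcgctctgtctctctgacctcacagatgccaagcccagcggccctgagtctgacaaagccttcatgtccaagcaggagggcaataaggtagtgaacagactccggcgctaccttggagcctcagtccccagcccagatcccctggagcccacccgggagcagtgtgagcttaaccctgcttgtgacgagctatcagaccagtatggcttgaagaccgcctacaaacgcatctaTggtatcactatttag
Bglap2: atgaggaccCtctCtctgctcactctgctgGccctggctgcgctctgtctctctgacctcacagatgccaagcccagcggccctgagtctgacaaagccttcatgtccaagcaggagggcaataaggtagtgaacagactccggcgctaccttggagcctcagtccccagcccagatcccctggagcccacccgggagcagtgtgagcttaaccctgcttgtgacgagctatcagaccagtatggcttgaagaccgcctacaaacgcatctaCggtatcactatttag
The other 284 bases were identical (98.6%), with a longest shared run of 241 bases. Over these whole transcripts of 440 and 471 bases, the identity was 92.1%. Values of Bglap and Bglap2 taken apart are therefore uncertain, and their sum is given beside them. The coding sequence of the neighbouring Bglap3 was 95.5% identical to that of Bglap, and Bglap3 had at most 6.07 counts in any library.

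Promoters were read for the core motif of Runx factors, ACCACA, on both strands and with no other motif searched, since Runx2 is itself a member. RefSeq gave 8 promoters for 6 of the members, leaving Scx, Sp7 and Bglap2 unread (GRCm38.p6, 250 bases before to 50 after the start), and 3 of the 8 held the motif, against 16.8% of all 32851 promoters of the same 300 bases. Runx2 held it 3 times, starting at positions -80, 23 and 31 from the start site, Bglap once at -132 and Dmp1 once at -164, in 1 of its 2 promoters. The promoters of Bglap (chr3:88384417-88384716, minus strand) and Ibsp (chr5:104299037-104299336, plus strand) are printed because these genes, like Bglap2, which has no entry, varied most between experiments, as described below. The motif is in capitals:
Bglap promoter: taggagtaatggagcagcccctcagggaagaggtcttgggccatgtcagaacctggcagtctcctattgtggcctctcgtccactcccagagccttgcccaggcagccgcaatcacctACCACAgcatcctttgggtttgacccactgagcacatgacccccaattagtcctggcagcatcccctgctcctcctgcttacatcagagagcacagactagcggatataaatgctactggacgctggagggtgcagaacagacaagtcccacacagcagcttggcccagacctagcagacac
Ibsp promoter: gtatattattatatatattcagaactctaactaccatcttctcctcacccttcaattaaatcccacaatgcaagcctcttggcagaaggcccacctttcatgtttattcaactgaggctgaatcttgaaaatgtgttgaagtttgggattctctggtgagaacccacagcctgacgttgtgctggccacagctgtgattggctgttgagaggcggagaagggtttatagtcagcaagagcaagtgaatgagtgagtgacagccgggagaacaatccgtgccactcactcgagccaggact
No match of these letters was found in the windows of Ibsp, Tnmd or Alpl. A match describes the sequence and does not show a binding site.

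The libraries differed in depth along with the groups. Total estimated counts ran from 6530269 to 12399498 in AAV-CTRL and from 564475 to 3261935 in AAV-VEGF-C, so that 3 counts, taken here as the floor of detection, stood for 0.242 to 0.459 CPM (counts scaled to the same library total) in the first group and 0.92 to 5.31 CPM in the second. Genes that most tissues do not use also differed. The summed level of 2187 olfactory, vomeronasal and taste receptor, keratin-associated protein and defensin genes, called reference families below, was 165 to 298 CPM in AAV-CTRL and 2996 to 7190 CPM in AAV-VEGF-C. All 10 markers of lymphatic endothelium on the list used here were detected and tested, at a summed level of 525 to 628 TPM (which also corrects for gene length) in AAV-CTRL and 171 to 354 TPM in AAV-VEGF-C. Fibroblast markers of the dura summed to 1973 to 4595 TPM and 438 to 1464 TPM respectively. In CPM both sums overlapped between groups. The lymphatic sum was 1837 to 2627 CPM in AAV-CTRL and 880 to 3371 CPM in AAV-VEGF-C. The fibroblast sum was 10253 to 23190 CPM and 6309 to 12053 CPM respectively. On the log2(TPM + 1) scale the median log2 fold change of all tested genes was itself -0.72. Leukocyte markers, which the CD45 gate should remove, summed to 21.7 and 15.3 TPM in the 2 libraries of experiment 1 and to 438 to 1480 TPM in the other 4.

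The members were called by edgeR's quasi-likelihood test with Benjamini-Hochberg adjustment over all 17459 genes. Of the 9, Dmp1 was called higher and Tnmd lower in AAV-VEGF-C, and 7 were not called. Across all tested genes 10.5% were called higher and 0.659% lower. These shares rest on single libraries: the 1835 genes called higher became 0 without AAV-CTRL 2 or AAV-CTRL 3, 8 without AAV-VEGF-C 2 and 320 without AAV-VEGF-C 3 (and 1771 and 1233 without AAV-CTRL 1 and AAV-VEGF-C 1), and the 115 called lower became 0 to 48. An unadjusted edgeR p under 0.05 was common in these fits, with 2624 to 4057 genes higher and 986 to 1914 lower. Between 18087 and 20250 genes were tested in them. Counts of list genes at an unadjusted p under 0.05, given below, come instead from the fit of all 6 libraries. The share of all genes at such a p in that fit is not given here, so these counts are no result about the lists. The median log2 fold change was -0.00 over the 9 members, -0.0037 over all tested genes and -0.41 over those whose mean TPM was 5 or more. Whether fewer cells of a type or less RNA per cell lies behind a level cannot be told apart in such bulk libraries. Nothing in the labels ties a library to 1 animal, and the p-values measure the spread between these pooled libraries. With 3 libraries against 3, an exact permutation test of a single value cannot give a p below 0.1, so none is quoted.

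**Figure D1:**
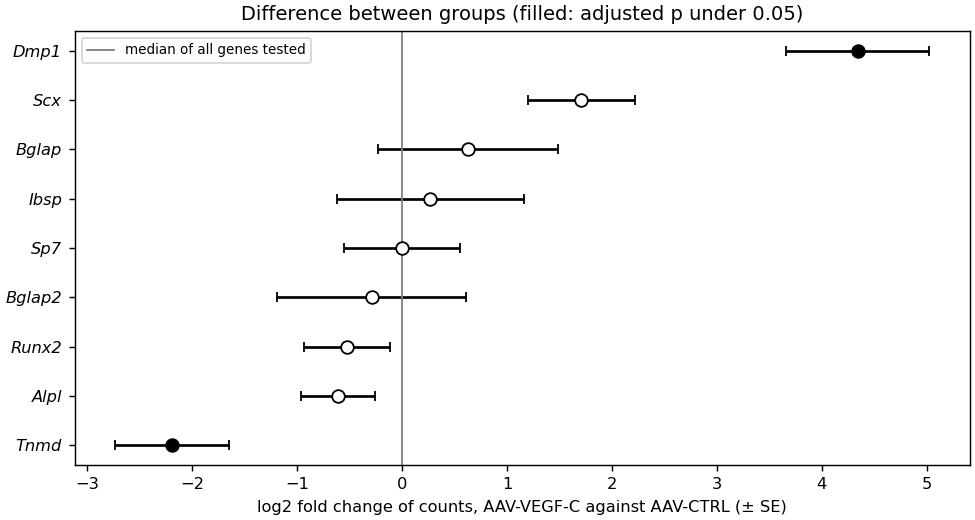
Log2 fold change of counts in AAV-VEGF-C against AAV-CTRL (x axis, with its standard error) for the 9 members, from edgeR over 3 libraries a group. Dmp1 (4.34) and Tnmd (-2.19) are filled as the genes with an adjusted p under 0.05, and the line is the median of all tested genes, -0.0037.

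Tnmd, the marker of mature tendon cells on chromosome X (chrX:133850980-133865577, plus strand), was lower after VEGF-C in each experiment. Its counts were 137, 79 and 371 in the AAV-CTRL libraries of experiments 1, 2 and 3, and 2, 3 and 19 in the AAV-VEGF-C libraries. Set against the library totals, these were 21, 10.1 and 29.9 CPM against 3.54, 2.09 and 5.82 CPM. The groups did not overlap, and the AAV-CTRL library was 5.92, 4.81 and 5.14 times as high as its partner in experiments 1, 2 and 3. No overlap with AAV-VEGF-C lower was seen for 19.1% of tested genes in CPM. The fitted log2 fold change was -2.19 ± 0.54 (SE), or 4.56-fold lower, with an edgeR adjusted p of 0.0399. Per length, the level went from 11, 5.66 and 20.9 TPM to 0.828, 0.729 and 2.4 TPM.

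The call of Tnmd sat near the threshold. It was lost with an edgeR adjusted p of 0.084 when libraries were scaled on the 2000 most abundant genes, and also when any 1 of the 6 libraries was left out, with adjusted p from 0.0662 to 0.0934 and log2 fold changes from -2.80 to -1.98. At most 48 genes in all were called lower in any of those 6 fits, and 10 of 17459 with that scaling. The calls lost there are thus no result about Tnmd. In AAV-VEGF-C, 2 of the 3 libraries lay at or under the floor of 3 counts, and the 95% Wilson interval of the level, which covers counting error only, ran from 0.972 to 12.9 CPM in AAV-VEGF-C 1 and from 17.7 to 24.8 CPM in AAV-CTRL 1. Of 14 markers of dural fibroblasts, 3 were called lower by edgeR and none higher, and all 14 had a negative log2 fold change (median -1.12), as did 50.2% of all tested genes. Per 10000 counts of the fibroblast markers, Tnmd stood at 9.05, 9.81 and 21.4 in AAV-CTRL and at 5.28, 3.31 and 4.83 in AAV-VEGF-C, and on this ratio too the groups did not overlap, as was so for 0.55% of all tested genes with AAV-VEGF-C lower. Per 10000 counts of the lymphatic markers they did overlap, at 79.9, 54.7 and 153 against 10.5, 16 and 66.2. Most of the fibroblast marker counts were of type I collagen. In AAV-CTRL 1, Col1a1 and Col1a2 stood at 10611 and 7622 CPM of the list's 23190 CPM. In AAV-VEGF-C 3 they stood at 5820 and 3775 CPM of 12053 CPM. Their log2 fold changes were -0.65 and -0.79, so the fibroblast ratio sets a gene mainly against these collagens.

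Scx, the transcription factor upstream of Tnmd (chr15:76457452-76459458, plus strand), did not follow it. Its counts of 22, 14 and 54 in AAV-CTRL against 4, 10 and 44 in AAV-VEGF-C gave 3.37, 1.78 and 4.36 CPM against 7.09, 6.97 and 13.5 CPM. The groups did not overlap in CPM and AAV-VEGF-C was the higher, as was true of 20.6% of all tested genes. The log2 fold change of 1.71 ± 0.51 (SE) had an edgeR adjusted p of 0.0732 and was not called. In TPM the groups overlapped, at 1.23, 0.852 and 3.06 in AAV-CTRL against 1.24, 1.1 and 3.89 in AAV-VEGF-C. Per 10000 fibroblast marker counts Scx was at 1.45, 1.74 and 3.11 against 10.6, 11 and 11.2, higher without overlap, as were 30.7% of all tested genes. The CPM and TPM scales differ over all genes as well: the median log2 fold change of all tested genes on the log2(TPM + 1) scale was -0.72. Scx lies within Bop1, on the other strand and sharing no exon with it, and the use of strand in counting is not given in the sources used here.

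**Figure D2:**
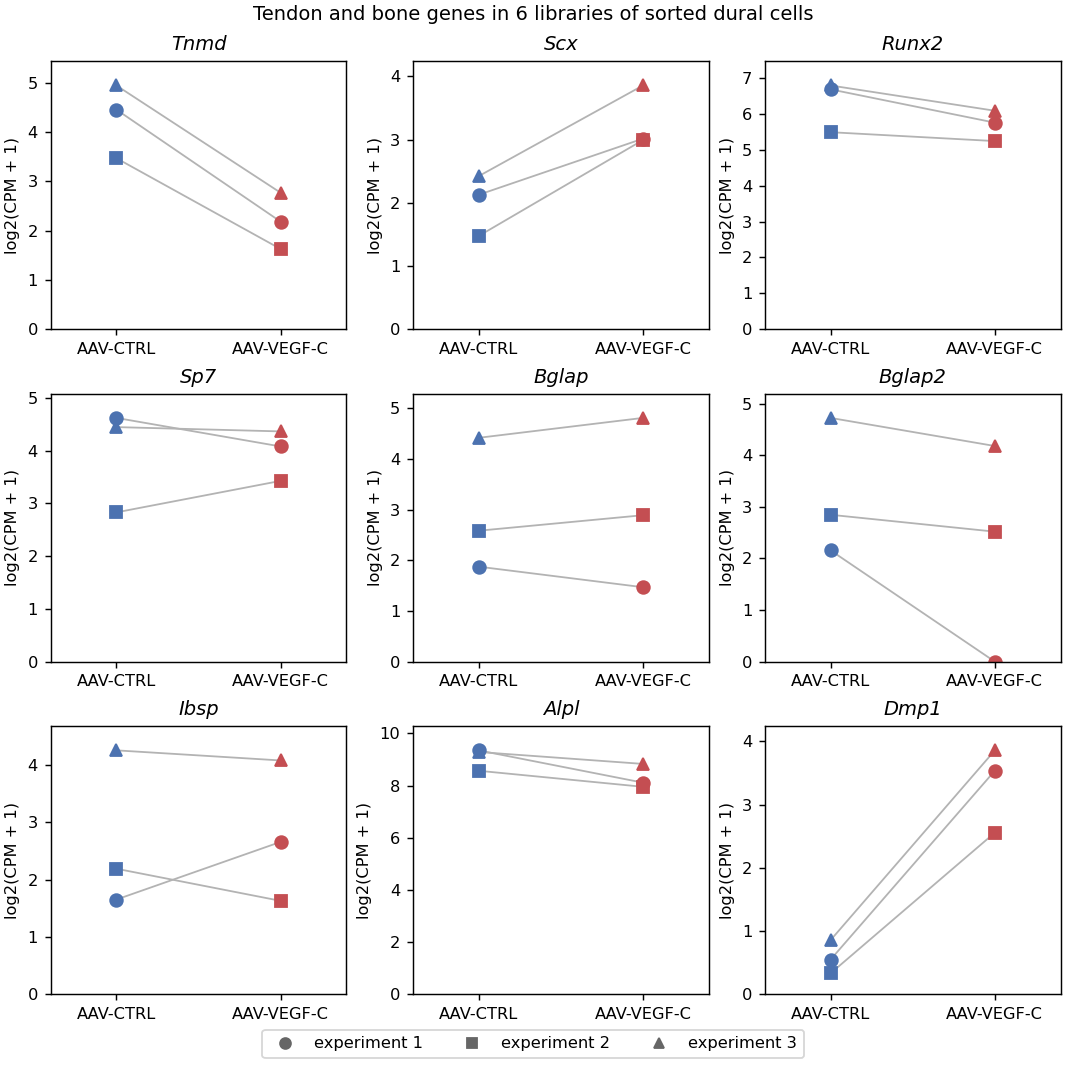
Level of each member in log2(CPM + 1) (y axis, with its own scale in each panel) in AAV-CTRL and AAV-VEGF-C, where each point is 1 library, its shape gives the experiment and lines join the 2 libraries of an experiment. The lines of Tnmd, Runx2, Bglap2 and Alpl all fall and those of Scx and Dmp1 all rise, whereas those of Sp7, Bglap and Ibsp run both ways.

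The wider tendon list held 17 genes, of which 16 were tested. Of these, 1 was called higher, Chodl, and none lower by edgeR, with 7 at an unadjusted p under 0.05 and a median log2 fold change of -0.54. Such unadjusted values were common over all genes in the fits that left out 1 library, as given above. Chodl, a membrane lectin, had 0, 1 and 0 counts in AAV-CTRL against 8, 5 and 8 in AAV-VEGF-C, a pooled ratio of 107 with an exact 95% counting interval of 17.2 to 4422. The most abundant genes of the list were Fmod (fibromodulin, which binds collagen fibrils), with a log2 fold change of -1.39 and an edgeR adjusted p of 0.107, and Col12a1 (a fibril-associated collagen), at -1.44 and 0.0922.

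Runx2, the factor that commits cells to the osteoblast lineage (chr17:44495987-44814797, minus strand), was present in every library. Its counts were 663, 346 and 1366 in AAV-CTRL against 30, 53 and 219 in AAV-VEGF-C, or 102, 44 and 110 CPM against 53.1, 36.9 and 67.1 CPM. The groups overlapped, and the log2 fold change of -0.52 ± 0.41 (SE) was not called (edgeR adjusted p of 0.443). Runx2 shares exon bases with the antisense gene Runx2os1 and overlaps Runx2os2, Runx2os3, Supt3 and n-R5s27, so some of its reads may belong to these.

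Sp7, which acts after Runx2 in osteoblast formation (chr15:102356606-102367182, minus strand), had a fitted log2 fold change of -0.00 ± 0.55 (SE). Its levels were 23.6, 6.11 and 20.8 CPM in AAV-CTRL and 15.9, 9.76 and 19.6 CPM in AAV-VEGF-C, and within both groups the library of experiment 2 was the lowest. Per 10000 fibroblast marker counts it stood at 10.2, 5.96 and 14.9 against 23.8, 15.5 and 16.3, higher without overlap in AAV-VEGF-C. The same was so for 30.7% of all tested genes on this ratio. An SE of that size leaves room for a change in either direction, and the adjusted p was 0.999 (edgeR).

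Alpl, the alkaline phosphatase that frees phosphate for mineral (chr4:137741733-137796384, minus strand), was the most abundant member. Its counts were 4262, 2980 and 7744 in AAV-CTRL against 156, 354 and 1485 in AAV-VEGF-C, or 653, 379 and 625 CPM against 276, 247 and 455 CPM. In CPM the groups overlapped through AAV-CTRL 2 and AAV-VEGF-C 3, and the log2 fold change of -0.61 ± 0.35 (SE) was not called (edgeR adjusted p of 0.302). In TPM they did not, with 148, 97.1 and 207 in AAV-CTRL against 23.9, 41.1 and 81.8 in AAV-VEGF-C. Tnmd and Alpl were the 2 members lower without overlap in TPM, a pattern that 36.4% of all tested genes shared. Beside the fibroblast marker counts, mostly of type I collagen, the groups overlapped for Alpl. It stood at 281, 370 and 446 per 10000 of these counts in AAV-CTRL against 412, 391 and 378 in AAV-VEGF-C.

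Order of level per length could be read within each group. In AAV-CTRL, Alpl led with a mean of 151 ± 55.1 TPM (SD, n = 3), and its lowest library lay above every library of the other members. Bglap2 (26 ± 32.9), Bglap (23.9 ± 30.4), Runx2 (23.6 ± 14.6) and Tnmd (12.5 ± 7.74) came next and did not differ beyond their spread. Sp7 (4.16 ± 2.61), Ibsp (3.23 ± 3.94) and Scx (1.71 ± 1.18) overlapped one another too, and Dmp1 at 0.131 ± 0.0936 TPM lay below every library of the others. In AAV-VEGF-C, Alpl again had the highest mean, 48.9 ± 29.8 TPM, although its lowest library (23.9) was below the highest of Bglap (33.2). The means of Bglap (13.4 ± 17.4), Runx2 (7.39 ± 5.13) and Bglap2 (7.03 ± 8.95) followed. Scx (2.08 ± 1.57), Ibsp (1.73 ± 1.97), Sp7 (1.69 ± 0.965), Tnmd (1.32 ± 0.939) and Dmp1 (1.29 ± 0.846) could not be put in order within their spread.

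Osteocalcin and bone sialoprotein, the late matrix genes, differed more between experiments than between groups. Bglap had 17.4, 39.3 and 254 counts in AAV-CTRL against 1, 9.21 and 88.3 in AAV-VEGF-C, which is 2.67, 5 and 20.4 CPM against 1.77, 6.42 and 27.1 CPM. Bglap2 had 22.6, 48.6 and 314 counts against 0, 6.79 and 55.7, or 3.46, 6.19 and 25.4 CPM against 0, 4.73 and 17.1 CPM. Both genes were highest in experiment 3 in either group. For the group difference neither was called by edgeR, with log2 fold changes of 0.63 ± 0.86 (SE, adjusted p of 0.681) for Bglap and -0.29 ± 0.90 (SE, adjusted p of 0.879) for Bglap2.

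Taken as a sum, the 2 osteocalcin genes gave 6.13, 11.2 and 45.8 CPM in AAV-CTRL and 1.77, 11.1 and 44.1 CPM in AAV-VEGF-C. The partners of experiments 2 and 3 thus lay close together, and the sum gave 0.13 ± 0.88 (SE) for the log2 fold change, with an edgeR adjusted p of 0.95. Bglap made up 43.6%, 44.7% and 44.6% of the summed counts in AAV-CTRL against 100%, 57.6% and 61.3% in AAV-VEGF-C, where the first of these rests on 1 count. How the counting shared reads between such like sequences is not given in the sources used here.

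Ibsp, a mineral-binding matrix protein (chr5:104299171-104311469, plus strand), showed the same split by experiment. It had 14, 28 and 225 counts in AAV-CTRL against 3, 3 and 52 in AAV-VEGF-C, or 2.14, 3.56 and 18.1 CPM against 5.31, 2.09 and 15.9 CPM. Its log2 fold change between groups was 0.27 ± 0.89 (SE, edgeR adjusted p of 0.886).

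The pattern of experiment 3 was noticed in these values and then compared with all genes, by a contrast of experiment 3 against the mean of experiments 1 and 2 with the group as a further term. The log2 fold change was 2.36 ± 0.44 (SE) for Bglap, 2.29 ± 0.52 for Bglap2 and 2.23 ± 0.57 for Ibsp, that is 5.13-, 4.9- and 4.7-fold. Their edgeR adjusted p of 0.0766, 0.159 and 0.221 did not pass the threshold, which 0.16% of tested genes did in this direction, and no member was called. These 3 had an unadjusted edgeR p under 0.05. The share of all genes at such a p in this contrast is not given here, so that count is no result about them. The other 6 members lay between 0.27 and 0.77, and the median of all genes was 0.05. Of the 9 members, 7 had their highest CPM in experiment 3 in both groups, as did 22.7% of tested genes. Sp7 and Alpl were the exceptions, being highest in experiment 1 in AAV-CTRL. Without AAV-VEGF-C 1, Bglap passed at an edgeR adjusted p of 0.0421 and was the 1 member called. In that fit 156 of 20106 genes were called higher. Without AAV-CTRL 1, AAV-CTRL 2 or AAV-VEGF-C 2, the edgeR adjusted p of Bglap was 0.106, 0.411 and 0.309. Over all genes 12, 0 and 11 were called higher in these fits, so the lost call is no result about Bglap. Without AAV-CTRL 3 or AAV-VEGF-C 3, the log2 fold change of Bglap was 2.58 and 2.21.

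**Figure D3:**
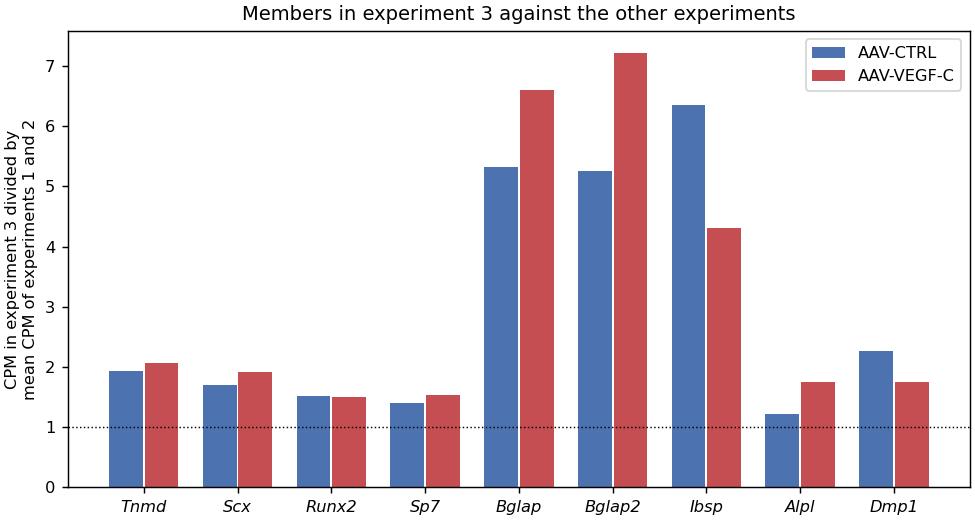
CPM of each member in the library of experiment 3 divided by the mean CPM of experiments 1 and 2 (y axis), with 1 bar for each group. Ibsp and both osteocalcin genes reach 4.31 to 7.22 in the 2 groups, and the other 6 members lie between 1.21 and 2.26.

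Among the 25 genes of the wider osteoblast list, 22 were tested for the same contrast, and 9 of them were highest in experiment 3 in both groups. Mmp13, a collagenase of bone matrix turnover, was called (log2 fold change 3.64, edgeR adjusted p of 0.0214), with 3.52, 9.8 and 88.4 CPM in AAV-CTRL and 0, 5.57 and 38 CPM in AAV-VEGF-C. Spp1 (osteopontin) was at 2.31 with an adjusted p of 0.159 and Postn (periostin) at 2.05 with 0.118, by the same edgeR test. Mmp13, Spp1, Postn, Rgs5 and Myh11 were chosen for mention after their values were seen. The median over the osteoblast list was 0.31, and Msx2 (-0.63) lay on the other side of 0, as did Col1a1 (-0.02). Markers of other cells also differed between experiments: the leukocyte genes Ptprc and Lyz2 were called higher in experiment 3, with Ptprc at 0.766, 143 and 104 CPM and at 1.77, 123 and 75.1 CPM, and the lymphatic list had a median of -1.27. Ptprc was higher still in experiment 2, and no leukocyte gene was highest in experiment 3 in both groups. Of 7 mural cell genes, 5 were, with a list median of 0.90, among them Rgs5 (2.58, edgeR adjusted p of 0.264), Myh11 (2.06, 0.291) and Acta2, smooth muscle actin (1.42, 0.0873). The part of these cell types in the pattern of the matrix genes was not tested.

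For the comparison of groups, the wider osteoblast list had 1 gene called lower, Sparc (osteonectin, a collagen-binding matrix protein), and none higher by edgeR, with 8 at an unadjusted p under 0.05 and a median log2 fold change of -0.72. Sparc went from 283, 214 and 480 TPM to 31.8, 58.1 and 102 TPM, and the log2 fold change was -1.39 (edgeR adjusted p of 0.0373). Col1a1 and Col1a2, the chains of type I collagen, were the most abundant, at -0.65 and -0.79 with edgeR adjusted p of 0.506 and 0.398. These collagens are made by dural fibroblasts as well and stand on that list too. None of the 10 genes of suture progenitor cells was called by edgeR, with 3 at an unadjusted p under 0.05. Their most abundant members were Zic1 (0.43, adjusted p of 0.649) and Prrx1 (-0.76, adjusted p of 0.321).

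Dmp1, the osteocyte gene (chr5:104202613-104214102, plus strand), had the largest fitted group difference of the 9 members and, in AAV-CTRL, the lowest level. It had 3, 2 and 10 counts in AAV-CTRL against 6, 7 and 44 in AAV-VEGF-C, or 0.459, 0.255 and 0.806 CPM against 10.6, 4.88 and 13.5 CPM. The groups did not overlap, and AAV-VEGF-C was 23.1, 19.2 and 16.7 times as high in experiments 1, 2 and 3. No overlap with AAV-VEGF-C higher was seen for 20.6% of tested genes in CPM. The fitted log2 fold change was 4.34 ± 0.68 (SE) with an edgeR adjusted p of 0.0193. Summed over libraries, 15 counts against 57 gave a ratio of 19.3, with an exact 95% interval of 10.8 to 36.8 for counting error only. Leaving out AAV-CTRL 2, AAV-CTRL 3, AAV-VEGF-C 2 or AAV-VEGF-C 3 took the edgeR adjusted p to 0.0772, 0.0549, 0.0543 and 0.0694, with log2 fold changes between 4.01 and 4.60. In the first 2 of these fits no gene at all was called by edgeR, though 3604 and 3641 had an unadjusted p under 0.05 and were higher.

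Beside the reference families, Dmp1 held a similar ratio in both groups. These 2187 genes averaged 0.0343, 0.0237 and 0.0317 TPM in AAV-CTRL and 0.36, 0.335 and 0.331 TPM in AAV-VEGF-C. Dmp1 was at 0.098, 0.059 and 0.237 TPM in AAV-CTRL and at 0.911, 0.7 and 2.26 TPM in AAV-VEGF-C, which is 2.86, 2.49 and 7.47 times that average against 2.53, 2.09 and 6.83 times. The groups overlapped on this ratio, and the partners of each experiment lay close. Most of the reference genes were too low to be tested, so no fold change over them is given. Whether their rise and that of Dmp1 have a common source was not tested.

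The reference average itself was higher in AAV-VEGF-C, so a gene whose TPM rose by less is lower on this ratio. The other 8 members were so without overlap between groups, as were 82.8% of all tested genes, and their ratios are given as levels only. Alpl went from 4096 to 6535 times their average in AAV-CTRL to 66.4 to 247 times in AAV-VEGF-C. Tnmd went from 239 to 659 times to 2.18 to 7.26 times, which in AAV-VEGF-C is close to the range of Dmp1. Scx, higher in CPM after VEGF-C, went from 35.8 to 96.4 times down to 3.29 to 11.8 times.

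**Figure D4:**
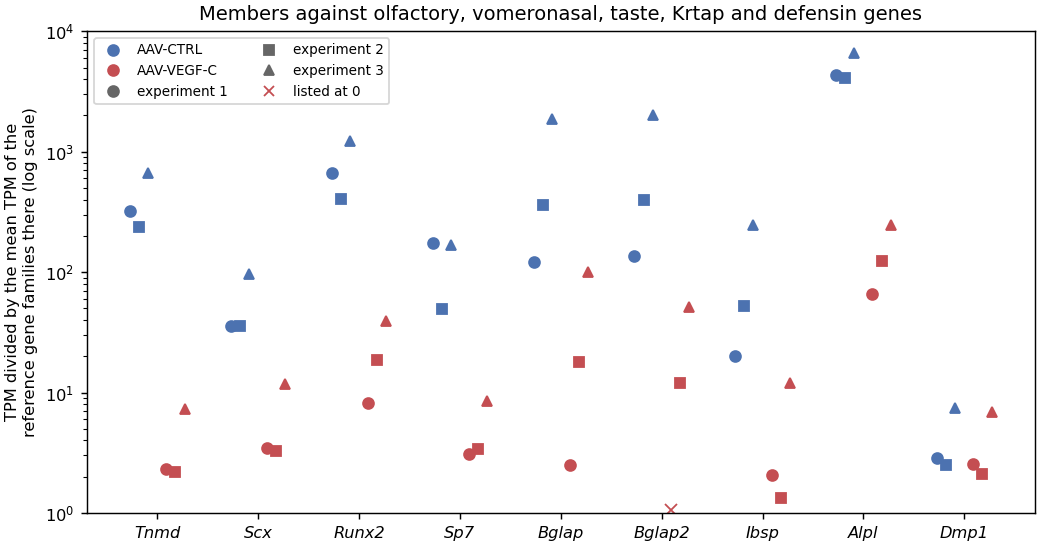
TPM of each member divided by the mean TPM of the 2187 reference genes in the same library (y axis, log scale), with 1 point per library, colour for the group and shape for the experiment. Dmp1 lies between 2.09 and 7.47 in all 6 libraries, and the other members lie lower in AAV-VEGF-C than in AAV-CTRL, Bglap2 of AAV-VEGF-C 1 being listed at 0.

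Other osteocyte and mineral genes could be compared only in part, 5 of 9 being tested. Dspp, a dentin matrix gene of the same family as Dmp1, was called higher (log2 fold change 6.01, edgeR adjusted p of 0.0193), with 2, 1 and 0 counts in AAV-CTRL against 4, 12 and 32 in AAV-VEGF-C. The pooled ratio was 81.5, with an exact 95% counting interval of 26.3 to 409. Its TPM was 1.2, 0.802 and 0 times the average of the reference genes in AAV-CTRL and 1.08, 2.29 and 3.23 times in AAV-VEGF-C. The osteocyte genes Sost (sclerostin) and Mepe were too low to be tested, Sost with 0, 1 and 1 counts against 2, 0 and 10, and Mepe with 0 in all AAV-CTRL libraries against 3, 3 and 7. Both were chosen for mention after their values were seen. The most abundant of the list, Ank (pyrophosphate transport) and Fam20c (a kinase of secreted proteins), had log2 fold changes of 0.06 and 0.16, with edgeR adjusted p of 0.95 and 0.786.

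Calls among markers of neighbouring skeletal cells are set beside the 10.5% of all tested genes called higher and the 0.659% called lower. Of 12 cartilage genes 10 were tested, and Col2a1, the collagen of cartilage, was called higher (log2 fold change 4.08, edgeR adjusted p of 0.0193), with 12, 13 and 17 counts in AAV-CTRL against 9, 13 and 163 in AAV-VEGF-C, whereas Sox9, the cartilage transcription factor, was at -0.97 (adjusted p of 0.262) and Sox5 at 0.32 (0.755). In TPM, Col2a1 was 6.57, 22.9 and 18.8 times the average of the reference genes in AAV-CTRL. In AAV-VEGF-C it was 4.69, 2.08 and 15.6 times, so the groups overlapped. On this ratio the groups also overlapped for Chodl and for the Schwann cell gene Sox10, both called higher in AAV-VEGF-C. Of 13 osteoclast genes 8 were tested and none called by edgeR, 1 having an unadjusted p under 0.05. Ctsk, the collagen-degrading protease of osteoclasts, was at -1.82 (edgeR adjusted p of 0.0536) and Nfatc1 at -0.08 (0.882). Dcstamp and Oscar had no count in any AAV-CTRL library. In AAV-VEGF-C they had 0, 0 and 8 counts and 0, 0 and 6 counts, so both were seen in 1 library only.

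Of the lists for other cells in or near the gate, the fibroblast list had 3 of 14 genes called lower and none higher by edgeR: Dcn (decorin, -1.69), Ogn (osteoglycin, -1.85) and Apod (-1.48), with adjusted p of 0.0287, 0.0313 and 0.039. The most abundant were Mgp (an inhibitor of calcification, -1.35, adjusted p of 0.11) and Col1a1. The lymphatic list had none of 10 called by edgeR and none at an unadjusted p under 0.05, with a median log2 fold change of -0.01. Its most abundant genes were the chemokine Ccl21a (0.42, adjusted p of 0.772) and the junction protein Cdh5 (-0.75, 0.277). Leukocyte (9 tested) and mural (7 tested) lists had no calls by edgeR, with 1 gene each at an unadjusted p under 0.05, and among 6 Schwann cell genes Sox10 was called higher (2.60, adjusted p of 0.0328) and S100b lower (-1.11, adjusted p of 0.0479). The most abundant of these lists were Lyz2 (-0.54, edgeR adjusted p of 0.86) and Csf1r (-0.12, 0.974) for leukocytes, Pdgfrb (-1.05, 0.122) and Acta2 (-0.62, 0.516) for mural cells, and Pmp22 (-0.57, 0.384) with S100b for Schwann cells.

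The genes most like Tnmd over the 6 libraries, by Pearson correlation of log2(CPM + 1) among the 7563 genes whose mean TPM was 5 or more, were Wwtr1 (0.996), Fermt2 (0.996), Scd2 (0.995), Ptn (0.994) and Pdgfd (0.994). For Alpl they included Clec11a (0.997), Pde4dip (0.997), Fkbp4 (0.996) and Arfgap1 (0.994). None of these 9 was called by edgeR, Pdgfd coming nearest with a log2 fold change of -1.37 and an adjusted p of 0.0578. The 6 libraries differ in depth by group as well, and these values describe these libraries alone.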

How the data were processed

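Estimated counts per gene were deposited by the authors without scaling between libraries, and were rounded to whole numbers here. TPM values, also deposited, correct for gene length and library total. RNA of sorted cells had been made into stranded low-input total RNA libraries. The submitters' processing notes name FastQC, Trimmomatic, DRAGEN, Picard and the build mm10, without role or version. The annotation, the use of strand and the handling of molecular identifiers are not given in the sources used here. Gene identifiers equalled those of GENCODE M21 in 99.5% of cases without their version, and positions came from it. Every row named a gene. Library totals of 564475 to 12399498 counts limit low genes most in AAV-VEGF-C.

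Groups came from the labels. Genes kept by filterByExpr were tested with edgeR 4.0.16 (R 4.3.3; TMM scaling, quasi-likelihood test, Benjamini-Hochberg threshold 0.05). The study used DESeq2, run as an alternative (1.42.0). Other alternatives covered scaling, filters, limma 3.58.1 (log2 TPM with pseudocounts of 1 and 0.1, and voom with sample weights), drawing counts down to 564430, the experiment as a block, and leaving out each library. Exact intervals came from scipy 1.17.1 and alignments from biopython 1.88. Replicate numbers in the labels mark a shared experiment, and the 2 libraries of an experiment departed from their group means together (correlations of 0.369, 0.28 and 0.155). Libraries of different experiments gave -0.395 to 0.216. The highest of these, AAV-CTRL 3 with AAV-VEGF-C 2, lay above the 0.155 of experiment 3. On simulated counts of the group comparison over 17459 genes, 154 of 200 genes changed by a log2 of 3 were called, with 14 false calls. The changed genes were drawn above a minimum mean count that Dmp1 did not reach, so calls of genes as low were not covered. Members and lists were chosen with earlier results of these data known. All members are named, and of each list the called genes (up to 6) and the 2 most abundant, with the 5 genes most like Tnmd and like Alpl, of which 1 is not reported here.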

Additional observations from a re-analysis of the deposited data

How the results depend on the processing

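Leaving out 1 library at a time gave 0 to 1 members called higher and 0 to 0 called lower, and 0 to 1 called higher in experiment 3. Calls over all genes shrank too: without AAV-CTRL 2 or AAV-CTRL 3 edgeR called no gene either way (3604 and 3641 higher, 1467 and 986 lower at an unadjusted p under 0.05), and without AAV-VEGF-C 2 there were 8 higher and 0 lower, so the lost calls of members are no result about them. The count called higher was 0 with a mean of at least 5 TPM or with counts drawn down to the smallest total, where fewer members were tested (5 and 2), and 2 with voom and sample weights, which added Scx (1.96, adjusted p of 0.0264), or at an adjusted p under 0.1. The count called lower was 0 under these first 3 settings and under scaling on the 2000 most abundant genes, where Tnmd stood at -1.86 (adjusted p of 0.304), untested when drawn down, -1.87 (0.0749) and -1.90 (0.084). That scaling raised the median of all genes by 0.31, and 10 of 17459 genes were called lower with it, against 115 in the main fit. The TPM filter left 9 of 7563 genes called higher and the drawing down 14 of 7573, with 0 lower in both. The calls lost in these 3 settings are thus no result about the members. Voom called more genes both ways, 2380 higher and 267 lower of 17459, against 1835 and 115. The call of Scx came with that rise, whereas Tnmd lost its call despite it. In experiment 3, 3 members were called with no filter and 1 with library size alone, where 183 of 44563 and 62 of 17459 genes were called higher. DESeq2 called Dmp1 (4.33) and Tnmd (-2.27) too, among 5534 of 44563 genes called higher and 471 called lower.

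Runx2 turned positive when drawn down (0.04). Sp7 turned positive with DESeq2 size factors (0.06), scaling on abundant genes (0.35), voom (0.40) and the replicate block (0.18), and ran from -0.44 to 0.38 without 1 library. Bglap (-0.91 and -1.15) and Ibsp (-0.46 and -0.71) turned negative on log2(TPM + 1) and log2(TPM + 0.1), where the median of all genes was -0.72 and -1.04. Bglap2 turned positive with a mean of at least 5 TPM (0.01) and voom (0.10). Without AAV-VEGF-C 3, Bglap stood at -0.88 and Ibsp at -1.0, and without AAV-CTRL 3 at 1.65 and 1.44, with Bglap2 from -1.77 to 0.68 in these 2 settings. None of these was called. The cause was not tested.

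With the experiment as a replicate block, Dmp1 (4.36, edgeR adjusted p of 0.00874) and Tnmd (-2.21, 0.0148) kept their calls and no other member was called. Calls rose over all genes too: that fit called 2241 of 17459 genes higher and 362 lower, against 1835 and 115 in the main fit.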
